A study of Mus musculus with 12 samples.

Results

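Glucose uptake and glycolysis were followed through 10 genes that cover the path from the plasma membrane to lactate: the glucose transporter gene Slc2a1, the hexokinase genes Hk1 and Hk2, the phosphofructokinase genes Pfkl and Pfkp, the aldolase gene Aldoa, the phosphoglycerate kinase gene Pgk1, the enolase genes Eno1 and Eno2, and the lactate dehydrogenase gene Ldha. Members were taken by gene symbol or older synonym from the platform annotation, whatever their signal. Of the 10 genes, 9 had a named probe set, with 12 probe sets among the 12488 of the array. Eno1 was not matched to a probe set and is not analysed here. A gene with several probe sets is represented by the one with the highest mean signal, and the others are given beside it. Of the 12 probe sets, 11 passed the filter on low signals, and the 12th, a second probe set for Hk2, lay at 1.44 to 30.49 on the 12 arrays.

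The cells were mouse embryonic fibroblasts of the DBA background strain that lack KSR1 (genotype KSR1 -/-) in every group. KSR1 is a scaffold protein that holds Raf, MEK and ERK together, and H-RasV12 is an oncogenic form of Ras that signals through that cascade. The 4 lines carried GFP alone, H-RasV12 and GFP, re-expressed KSR1 and GFP, or KSR1 together with H-RasV12 and GFP (here the double line), and 3 arrays were measured per line. Nothing in the labels says that the arrays of a line came from separate cultures or that a condition was made more than once, so p-values measure the spread between arrays of 1 line per condition, which may be technical.

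Glucose enters fibroblasts through facilitative transporters, and hexokinase traps it as glucose 6-phosphate. Phosphofructokinase makes the first step that commits the sugar to glycolysis, and aldolase splits the product into triose phosphates. Phosphoglycerate kinase and enolase belong to the part of the path that yields ATP, and lactate dehydrogenase regenerates NAD+ by turning pyruvate into lactate. Several steps have isoforms encoded by separate genes: Hk1 and Pfkl are broadly expressed, Hk2 is the regulated hexokinase of muscle, fat and tumour cells, Pfkp is the platelet form of phosphofructokinase, and Eno2 is best known from neurons. Oncogenic Ras and hypoxia-inducible factor are textbook activators of many of these genes.

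Signals are the authors' MAS5 values, in arbitrary linear units, given as mean ± SD over 3 arrays (n = 3). Changes are differences of log2(signal + 23) ± SE from a single limma fit over 6897 probe sets, with Benjamini-Hochberg adjustment over those probe sets, and the threshold for a call was an adjusted p under 0.05. The Ksr1 probe set that follows the transgene read 14.23 to 143.7 on the 6 arrays without KSR1, 207.3 to 1605 with KSR1 and 140.8 to 301.2 in the double line, so the lowest double-line array lay just below the highest array without KSR1. The other Ksr1 probe set read 180.2 to 366.3 on the 12 arrays. The fibroblast collagen gene Col1a2 was abundant, at group means between 5617 and 13693. Col1a1 fell from 18526 with GFP to 2133 in the double line (177.9 on replicate 3), and Col3a1 from 5698 to 1895. Pdgfrb fell from 449 to 32.9, and Thy1 stayed at group means of at most 27.2. The probe set of Vim, another mesenchymal marker, stayed at 73.6 to 90.7. Fn1, Pdgfra and S100a4 stayed at group means of 1433 or more. Arrays of a line correlated at r = 0.955 to 0.978 over log2 signals, and the highest signal of any probe set was 34846.

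Promoter sequences of Slc2a1, Hk2, Hk1, Pfkp, Eno2 and Ldha, a choice among the 10 genes, are shown first. Each is the RefSeq window of GRCm38.p6 from 250 bases before to 50 bases after the annotated start, written 5′ to 3′ on the gene's strand. Capitals mark ACGTG and GCGTG, the core of the hypoxia-response element, found on either strand, so that they also appear as CACGT and CACGC. Where a gene has several starts, the number says which window is shown.
Slc2a1, chr4:119108495-119108794, plus strand: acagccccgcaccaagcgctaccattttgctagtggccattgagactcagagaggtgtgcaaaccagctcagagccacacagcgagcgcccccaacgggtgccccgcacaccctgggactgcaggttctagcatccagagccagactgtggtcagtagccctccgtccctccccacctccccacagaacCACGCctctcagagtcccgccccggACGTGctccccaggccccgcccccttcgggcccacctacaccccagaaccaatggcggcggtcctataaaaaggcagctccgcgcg
Hk2, chr6:82774405-82774704, minus strand: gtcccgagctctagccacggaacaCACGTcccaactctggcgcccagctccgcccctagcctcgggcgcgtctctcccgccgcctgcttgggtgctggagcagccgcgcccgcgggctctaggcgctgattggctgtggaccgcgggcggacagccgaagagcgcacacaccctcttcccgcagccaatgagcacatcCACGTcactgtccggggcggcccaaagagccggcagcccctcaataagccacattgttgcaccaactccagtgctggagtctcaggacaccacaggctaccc
Hk1, start 2, chr10:62340372-62340671, minus strand: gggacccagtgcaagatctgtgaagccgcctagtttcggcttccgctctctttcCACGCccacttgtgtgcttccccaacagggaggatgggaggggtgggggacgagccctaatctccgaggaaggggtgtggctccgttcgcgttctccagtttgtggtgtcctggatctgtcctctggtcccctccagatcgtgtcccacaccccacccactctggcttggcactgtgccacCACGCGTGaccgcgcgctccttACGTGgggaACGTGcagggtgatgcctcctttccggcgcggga
Pfkp, chr13:6648722-6649021, minus strand: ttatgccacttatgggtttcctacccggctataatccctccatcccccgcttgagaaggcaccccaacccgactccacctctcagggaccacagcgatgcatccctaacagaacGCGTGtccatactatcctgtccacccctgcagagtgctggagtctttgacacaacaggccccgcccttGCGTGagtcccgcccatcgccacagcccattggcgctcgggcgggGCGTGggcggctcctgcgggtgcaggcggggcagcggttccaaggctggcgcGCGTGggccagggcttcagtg
Eno2, chr6:124769624-124769923, minus strand: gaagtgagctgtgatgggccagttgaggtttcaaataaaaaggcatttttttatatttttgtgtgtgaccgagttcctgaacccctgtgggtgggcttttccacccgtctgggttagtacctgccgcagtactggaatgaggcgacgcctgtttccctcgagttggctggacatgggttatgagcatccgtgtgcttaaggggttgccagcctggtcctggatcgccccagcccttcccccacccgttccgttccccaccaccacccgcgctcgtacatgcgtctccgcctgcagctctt
Ldha, start 1, chr7:46845554-46845853, plus strand: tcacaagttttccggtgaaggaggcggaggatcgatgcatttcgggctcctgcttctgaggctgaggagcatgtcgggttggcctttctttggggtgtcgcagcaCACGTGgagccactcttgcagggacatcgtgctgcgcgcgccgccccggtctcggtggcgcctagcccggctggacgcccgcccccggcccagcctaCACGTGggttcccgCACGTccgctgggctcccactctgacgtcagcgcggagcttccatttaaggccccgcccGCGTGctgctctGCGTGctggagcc

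The windows of the 10 genes differed in these matches. Of 16 windows, 13 held ACGTG or GCGTG, as did 43.8% of the 32851 windows of this length in the table. The windows of Aldoa starts 2 and 3 overlap, as do those of Eno1 starts 2 and 3, so their shared matches are counted in each. Slc2a1 and Hk2 held 2 matches each, Pfkp held 4 and Pgk1 held 2, and 20.6% of the windows in the table held at least 2. The first Ldha window held 7, among them 2 copies of CACGTG, the E-box read by Myc family proteins, each of which counts as ACGTG on both strands. CACGTG was found in 1 of the 16 windows and in 7.2% of the windows in the table. The Eno2 window and the first windows of Hk1 and Aldoa held no match, and the second Hk1 window held 5. A match describes letters in a window and was not tested as a binding site.

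**Figure D1:**
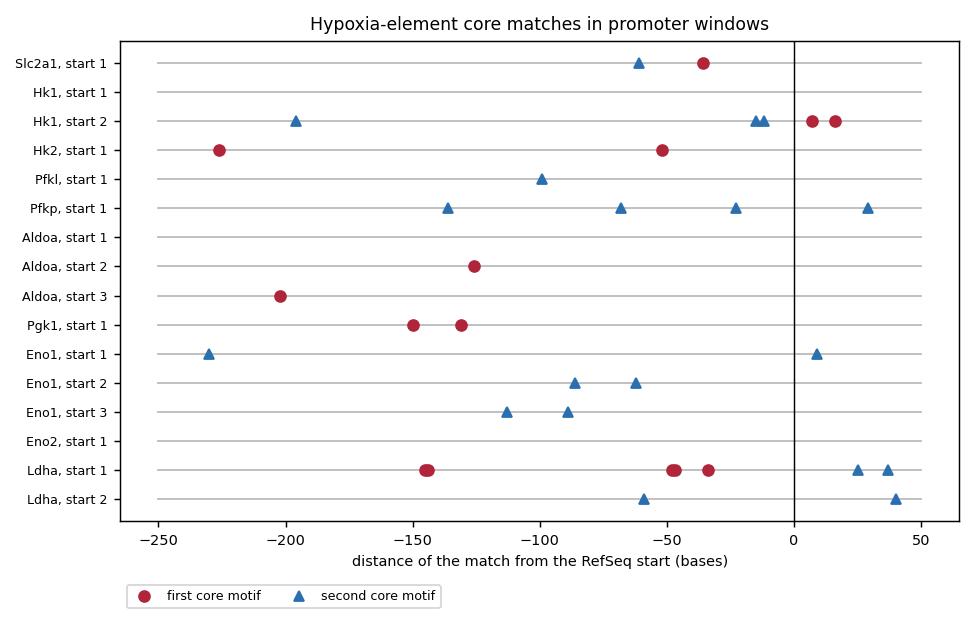
Matches of ACGTG (circles, the first core motif) and GCGTG (triangles, the second core motif) on either strand in the 16 promoter windows of the 10 genes, plotted by distance in bases from the RefSeq start; each line is a window. The Eno2 window and the first windows of Hk1 and Aldoa have no match, the first Ldha window has 7 and the second Hk1 window has 5.

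Slc2a1 encodes GLUT1, the transporter that supplies basal glucose to most dividing cells. Its signal was 657.9, 383.5 and 214 on the GFP arrays, 318.5, 649.2 and 458.8 with H-RasV12, 1641, 1377 and 550.2 with KSR1, and 3892, 4527 and 3346 in the double line. The double line lay above every other array, the KSR1 arrays spanned a wide range whose lowest value fell within the GFP range, and the GFP and H-RasV12 lines overlapped. Group means were 418 ± 224, 475 ± 166, 1189 ± 569 and 3922 ± 592 in that order. The double line was 9.71-fold above GFP on the log2(signal + 23) scale (+3.28 ± 0.41, limma adjusted p = 6.28e-05), above H-RasV12 by +3.03 ± 0.41 (limma adjusted p = 0.000132) and above KSR1 by +1.83 ± 0.41 (limma adjusted p = 0.0065). These 3 differences passed in each alternative that was run. KSR1 alone was above GFP by +1.45 ± 0.41 (limma adjusted p = 0.031). This last call was lost when GFP replicate 2 (0.0759) or 3 (0.159) was left out, and also when KSR1 replicate 1 (0.127) or 2 (0.129) was.

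Hk2 followed a graded order over the 4 lines. Its signal was 457.4, 533.6 and 373.1 with GFP, 201.1, 319.6 and 288.7 with H-RasV12, 1059, 1077 and 947.4 with KSR1, and 1501, 2298 and 2076 in the double line. No neighbouring lines overlapped: H-RasV12 was lowest, then GFP, then KSR1, then the double line. The mean was 455 ± 80.3 with GFP and 270 ± 61.5 with H-RasV12, a difference that did not pass (-0.72 ± 0.22, limma adjusted p = 0.389). With KSR1 the signal rose to 1028 ± 70.0 (+1.15 ± 0.22, limma adjusted p = 0.00258). The double line reached 1958 ± 412, which was above KSR1 by +0.90 ± 0.22 (limma adjusted p = 0.0109, 0.0558 without double-line replicate 2), above H-RasV12 by +2.76 ± 0.22 (limma adjusted p = 1.28e-06) and above GFP by +2.04 ± 0.22 (limma adjusted p = 1.54e-05).

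Hk1, the hexokinase that most tissues express at all times, did not follow Hk2. Its signal was high throughout, at 10254, 13412 and 17136 with GFP, 11318, 10601 and 15136 with H-RasV12, 11196, 7874 and 16143 with KSR1, and 10945, 12575 and 12870 in the double line. The 4 lines overlapped. The double line differed from GFP by -0.14 ± 0.26 (95% interval -0.68 to 0.41) and from H-RasV12 by -0.01 ± 0.26 (95% interval -0.56 to 0.54), so a doubling of Hk1 lies outside both intervals. In no comparison did Hk1 pass the test (limma adjusted p between 0.618 and 1).

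**Figure D2:**
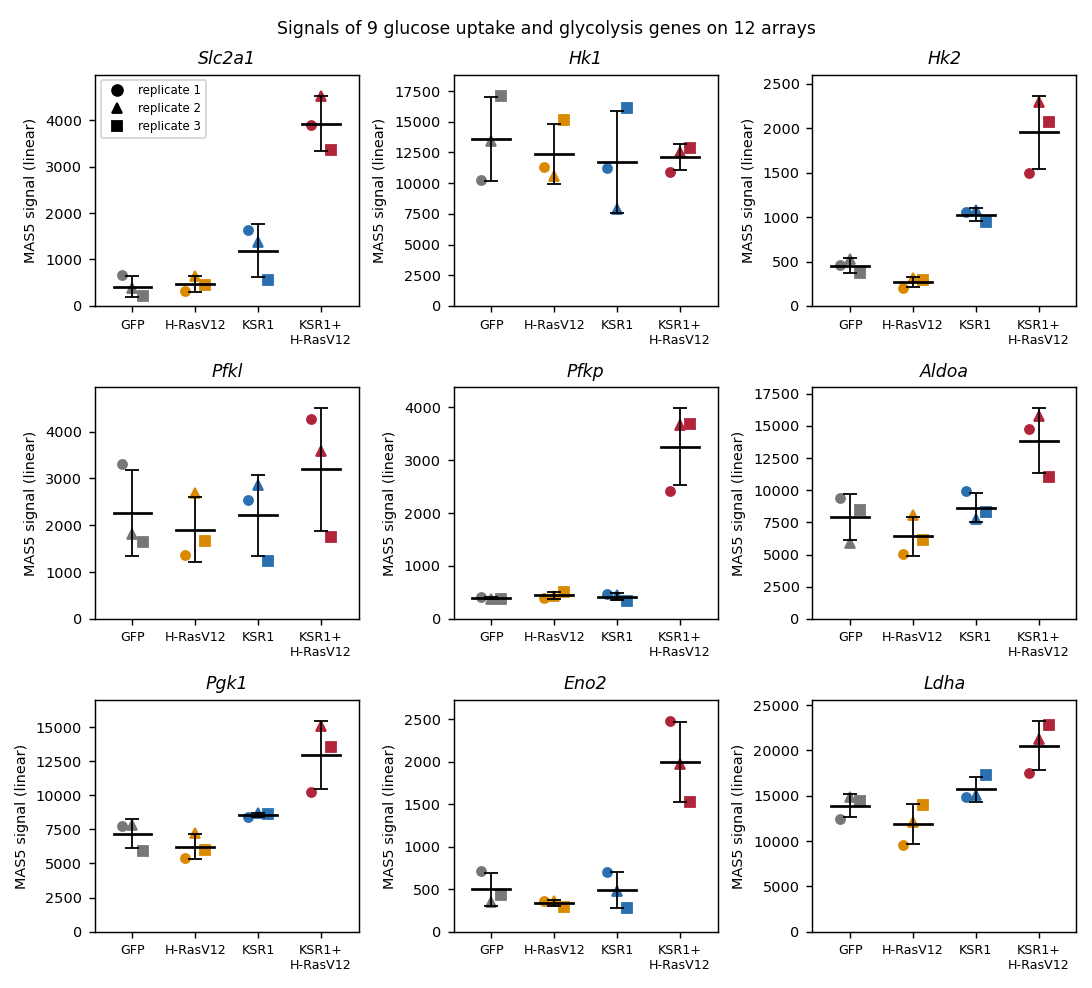
MAS5 signal (linear units, axes from 0) of the 9 measured genes on the 12 arrays, by line; circles, triangles and squares are replicates 1, 2 and 3, bars are means and whiskers SDs (n = 3). Slc2a1, Hk2, Pfkp and Eno2 are highest in the double line without overlap with any other line, while Hk1 and Pfkl overlap between lines.

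Of the phosphofructokinase genes, Pfkp was called in the double line and Pfkl was not. Pfkp, through its brighter probe set, read 412.6, 377.1 and 377.6 with GFP, 388.7, 436.4 and 516.6 with H-RasV12, 469.1, 445.4 and 344.6 with KSR1, and 2428, 3667 and 3687 in the double line. The first 3 lines overlapped within 344.6 to 516.6 and the double line stood apart. Its mean of 3261 ± 721 was 7.83-fold above GFP (+2.97 ± 0.20, limma adjusted p = 2.58e-07), 6.90-fold above H-RasV12 (+2.79 ± 0.20, limma adjusted p = 6.03e-07) and 7.34-fold above KSR1 (+2.88 ± 0.20, limma adjusted p = 5.7e-07). The second Pfkp probe set, designed from the same source sequence and therefore not independent, read 300.4 to 657.8 on the first 9 arrays and 2128 to 3711 in the double line (+2.54 ± 0.27 against GFP). Neither transgene alone moved Pfkp past the threshold, at +0.18 ± 0.20 for H-RasV12 and +0.09 ± 0.20 for KSR1.

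Pfkl encodes the liver-type subunit of the same enzyme. It read 3310, 1822 and 1648 with GFP, 1355, 2688 and 1673 with H-RasV12, 2538, 2862 and 1228 with KSR1, and 4260, 3577 and 1738 in the double line. The lines overlapped and the spread within each was wide. The double line differed from GFP by +0.47 ± 0.39 (95% interval -0.37 to 1.30, limma adjusted p = 0.509) and from H-RasV12 by +0.70 ± 0.39 (limma adjusted p = 0.286). A doubling of Pfkl lies inside both intervals and was therefore not resolved with 3 arrays per line.

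Aldoa and Pgk1 act in the middle of the path, and their differences were smaller. Aldoa read 9427, 5918 and 8427 with GFP, 5079, 8070 and 6100 with H-RasV12, 9920, 7765 and 8277 with KSR1, and 14803, 15764 and 11038 in the double line. Pgk1, which makes ATP from 1,3-bisphosphoglycerate, read 7771, 7851 and 5944, then 5436, 7223 and 5993, then 8382, 8674 and 8632, and in the double line 10207, 15079 and 13523. In both genes the double line lay above every other array. Against H-RasV12, Aldoa was higher by +1.12 ± 0.23 (limma adjusted p = 0.00332) and Pgk1 by +1.05 ± 0.19 (limma adjusted p = 0.00149). Against GFP, Pgk1 was higher by +0.84 ± 0.19 (limma adjusted p = 0.00689). Aldoa was higher than with GFP by +0.82 ± 0.23 (limma adjusted p = 0.023). That call was lost on leaving out GFP replicate 2 (0.111) or replicate 1 (0.0597) or 2 (0.0977) of the double line, with quantile normalization (0.0708), and without the filter (0.0547). Against KSR1 both missed the threshold (limma adjusted p = 0.0625 for Aldoa and 0.0555 for Pgk1). Both passed there with the replicate number as a block (0.0461 and 0.0211) and after median centring (0.0255 and 0.0296). Aldoa also passed without GFP replicate 2 (0.0499) or double-line replicate 3 (0.0403), and Pgk1 without double-line replicate 1 (0.0185) or replicate 1 of every line (0.0423).

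The second Aldoa probe set was also highest in the double line and lowest with H-RasV12, but placed KSR1 below GFP (-0.08 ± 0.18) where the first placed it above (+0.15 ± 0.23), neither of which was called. Its values were 4974, 4592 and 5214 with GFP, 2913, 4014 and 4218 with H-RasV12, 5050, 4060 and 4946 with KSR1, and 6710, 7957 and 8855 in the double line. It was called against KSR1 as well (+0.74 ± 0.18, limma adjusted p = 0.0139). Both Aldoa probe sets carry the platform suffix for probes shared within a gene family, so signal from a near-identical sequence cannot be told apart from Aldoa.

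Eno2 was high in the double line alone, as Pfkp was. It read 717.3, 347.7 and 430.9 with GFP, 358.8, 358.3 and 295 with H-RasV12, 705.1, 484.2 and 281.1 with KSR1, and 2474, 1971 and 1530 in the double line. The first 3 lines overlapped and the double line, at 1992 ± 472, did not overlap with them. It was higher than GFP by +1.99 ± 0.31 (limma adjusted p = 0.000433), higher than H-RasV12 by +2.46 ± 0.31 (limma adjusted p = 8.14e-05) and higher than KSR1 by +2.04 ± 0.31 (limma adjusted p = 0.00042). Eno2 is known as the neuronal enolase. Of 5 neuron markers, Snap25, Nefl and Syp had group means of at most 75.6. Map2 was lower in the double line than with GFP, at 13.0 against 139 (-2.03 ± 0.44, limma adjusted p = 0.00569). Tubb3, through a probe set of the gene-family type, lay at group means of 3220 to 3716 and made up most of the summed signal of the 5, which ran from 2417 to 4075 with GFP and from 2692 to 3831 in the double line.

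Ldha, which makes lactate, was called against H-RasV12 with the smallest change of the 7 genes called there. It read 12462, 14819 and 14413 with GFP, 9587, 12095 and 13983 with H-RasV12, 14808, 15079 and 17312 with KSR1, and 17540, 21269 and 22752 in the double line. The double line lay above every other array, although its lowest array and the highest KSR1 array were close. It was higher than H-RasV12 by +0.79 ± 0.18 (limma adjusted p = 0.00759). The difference from GFP was +0.56 ± 0.18 (limma adjusted p = 0.0517), and it passed with the replicate number as a block (0.00527), after quantile normalization (0.0449), and without H-RasV12 replicate 1 (0.0463), H-RasV12 replicate 3 (0.0414) or double-line replicate 1 (0.0361). The difference from KSR1 was +0.38 ± 0.18 (limma adjusted p = 0.195, 0.0446 with the block).

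Set side by side, the comparisons asked what each transgene changes with and without the other. With H-RasV12 in KSR1-null cells, 0 of the 9 measured genes were called by limma, against 0.0725% of all tested probe sets in either direction. An unadjusted p under 0.05 was found for 1 of 9 (Hk2) and for 411 of the 6897. Hk2 was also the 1 gene whose arrays lay below GFP without overlap, as did 5.23% of all tested probe sets. Their median change was -0.23, with 0.01 over all tested probe sets. With KSR1 alone, 2 of 9 (Slc2a1 and Hk2) were called higher and 0 lower, against 4.97% of all tested probe sets called higher and 6.81% lower. The median change was +0.15 (0.04 over all tested). Arrays lay above GFP without overlap for 2 of 9 (Hk2 and Pgk1), against 14.9%. The count of called genes fell to 1, Hk2, whenever Slc2a1 was lost: with any of the 4 arrays named above left out, and also without the filter (adjusted p = 0.0631) or in a fit of the groups compared alone (0.0646).

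Against the KSR1 line, the double line had 4 of 9 higher (Slc2a1, Hk2, Pfkp and Eno2) and 0 lower, beside 8.16% of all tested probe sets called higher and 6.92% lower. The median change of the 9 was +0.67, with -0.07 over all tested. Groups did not overlap for 7 of 9 genes, a pattern that 13.9% of all tested probe sets showed in that direction. The count was 7 with the replicate number as a block. Alternatives other than leaving out arrays called 763 to 1290 of all probe sets in either direction, against 1040 in the main fit. Against the H-RasV12 line, the double line had 7 of 9 higher and 0 lower, beside 7.10% higher and 7.71% lower, with Hk1 and Pfkl not called. The same 7 did not overlap, against 13.8%. The median change there was +1.12 (-0.05 over all tested). The double line against GFP gave 6 of 9 higher and 0 lower, against 7.71% higher and 7.93% lower, with a median of +0.84 (-0.02 over all tested) and 7 of 9 without overlap, against 13.9%. Comparisons share lines, so these counts are not independent of each other. The Ksr1 probe set that follows the transgene read 915 ± 699 with KSR1 and 235 ± 83.6 in the double line. These 2 lines may thus differ in KSR1 as well as in H-RasV12, and the part of this was not tested.

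**Figure D3:**
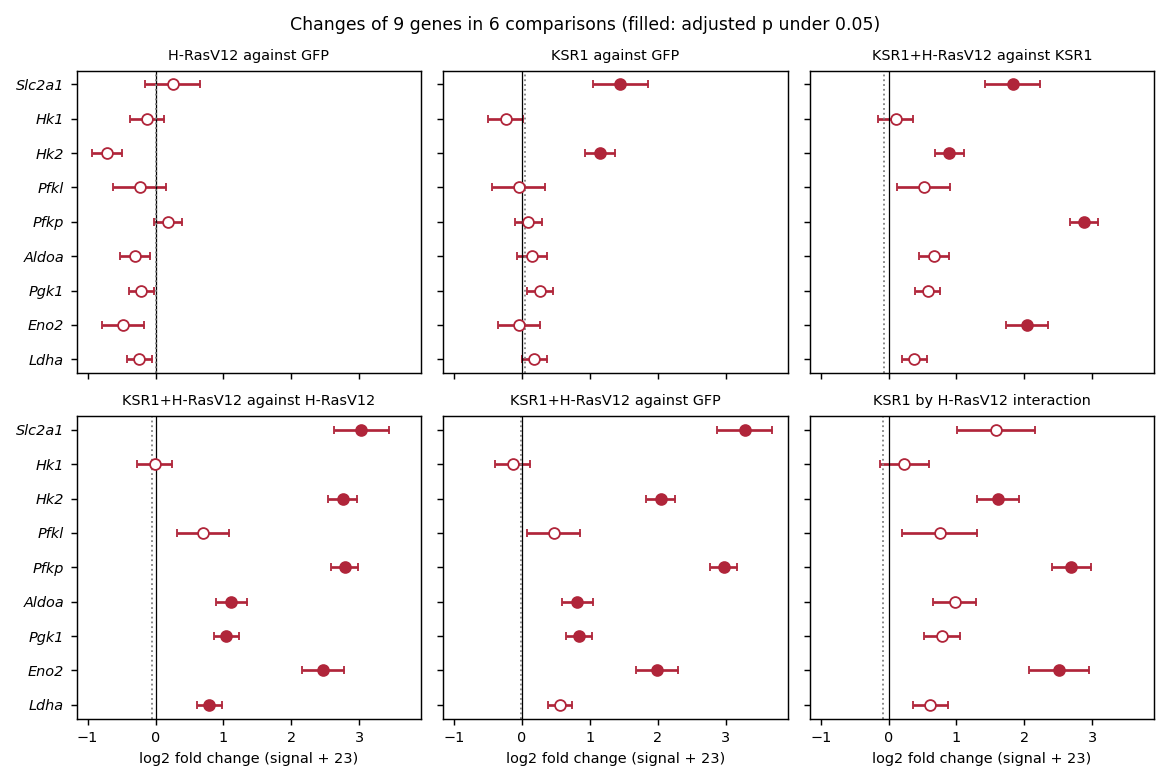
Change in log2(signal + 23) of the 9 genes in 6 comparisons, with limma standard errors as whiskers; filled points had an adjusted p under 0.05, and the dotted line is the median of all 6897 tested probe sets. With H-RasV12 alone 0 of 9 are filled, and in the double line against H-RasV12 7 of 9 are filled.

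The interaction asked whether the response to H-RasV12 with KSR1 differed from the response without it. The difference was above 0 for 9 of 9 genes, with a median of +0.97 (-0.08 over all tested). It was called for 3, Pfkp (+2.69 ± 0.28, limma adjusted p = 8.29e-05), Eno2 (+2.51 ± 0.44, limma adjusted p = 0.00286) and Hk2 (+1.61 ± 0.30, limma adjusted p = 0.00475), against 4.16% of all tested probe sets called in that direction and 3.54% in the other. For Slc2a1 the difference was +1.58 ± 0.57 and missed the threshold (limma adjusted p = 0.124), but passed with the replicate block (0.0463) and after median centring (0.0446). The count was 6 with the block and 5 after median centring. Alternatives other than leaving out arrays called 439 to 741 of all probe sets in either direction, against 531 in the main fit. The difference was smallest for Hk1, at +0.23 ± 0.36.

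Isoforms of the same step were compared by the log2 difference between them within each array, relative to its mean in the GFP line. Levels of different probe sets cannot be set against each other, so this measures unequal change. Hk2 minus Hk1 was -0.59 ± 0.39 (SD, n = 3) with H-RasV12, +1.39 ± 0.61 with KSR1 and +2.18 ± 0.20 in the double line, with an SD of 0.54 in the GFP line. The 4 lines differed in an exact permutation test of the F statistic over 369600 assignments of arrays to lines (p = 0.000455, 0.00136 adjusted over 3 isoform pairs). The difference rested on the bright Hk2 probe set, since the second one was dim.

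Pfkp minus Pfkl stayed at +0.42 ± 0.50 with H-RasV12 and +0.14 ± 0.44 with KSR1 and reached +2.50 ± 0.94 in the double line. The lines differed (exact permutation p = 0.00955, adjusted 0.0143). In the double line the 3 arrays spread from 1.60 to 3.48, and replicate 3 had the lowest Pfkl and the highest Pfkp of the 3. For enolase, the muscle form Eno3 was taken in place of Eno1 after the files were seen. Eno3 read 781 with GFP, 787 with H-RasV12, 1226 with KSR1 and 1388 in the double line as group means. Eno2 minus Eno3 was -0.44 ± 0.75, -0.73 ± 0.72 and +1.14 ± 0.14 for H-RasV12, KSR1 and the double line (exact permutation p = 0.0238, adjusted 0.0238). Adjusted values rose to 0.0686, 0.0744 and 0.0547 without double-line replicate 1, 2 or 3. With replicates 2 and 3 alone they were 0.0857 for the hexokinases, 0.133 for the phosphofructokinases and 0.1 for the enolases.

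**Figure D4:**
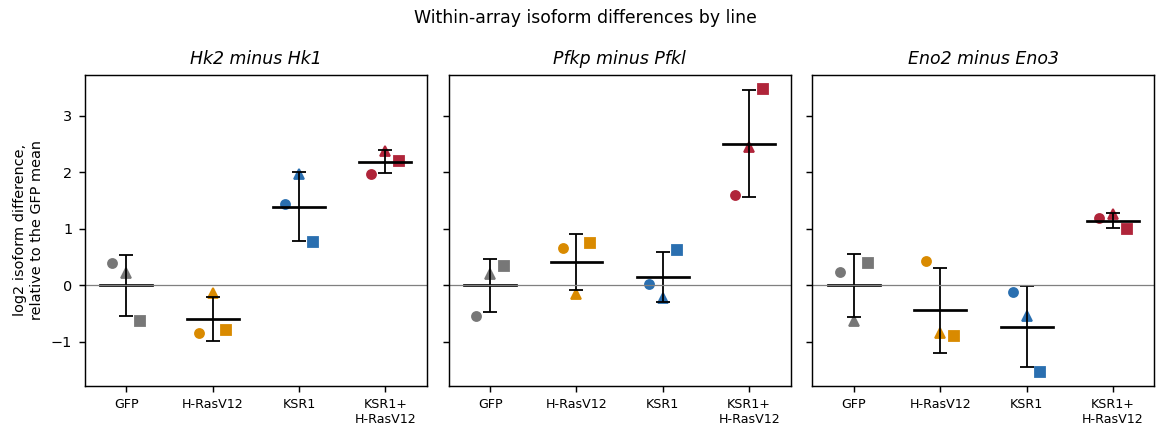
Within-array log2 difference between 2 isoforms of 1 step, relative to the mean of the GFP line, for 3 isoform pairs by line; circles, triangles and squares are replicates 1, 2 and 3, bars are means and whiskers SDs (n = 3). In the double line the mean is 2.18 for Hk2 minus Hk1, 2.50 for Pfkp minus Pfkl and 1.14 for Eno2 minus Eno3.

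The remaining steps of glycolysis were read from a list of 23 further genes, of which 16 had a probe set and 10 passed the filter. With H-RasV12 alone and with KSR1 alone 0 of 10 were called. In the double line 6 of 10 were higher than with KSR1 and 4 of 10 were higher than with H-RasV12, with 0 lower in either. The shares of all tested probe sets called higher there were 8.16% and 7.10%. Of the 6 calls against KSR1, those for Slc2a3 and Ldhb stayed in each alternative that was run. Those for Pfkm, Pfkfb3, Tpi1 and Pgam1 were lost in 5, 6, 8 and 5 of 21 alternatives (limma adjusted p up to 0.127, 0.105, 0.118 and 0.0924). Leaving out replicate 3 of the KSR1 line ended all 4, as did leaving out replicate 2 of the double line, and each other array of these lines ended 1 or 2 of them. The median change of the 10 was +0.66 and +0.77, beside -0.07 and -0.05 over all tested probe sets. Ldhb, the heart-type lactate dehydrogenase, rose from 177 ± 61.2 with KSR1 to 1038 ± 490 in the double line (+2.34 ± 0.31, limma adjusted p = 0.00013). The second glucose transporter gene Slc2a3 rose from 129 ± 25.8 to 438 ± 152 (+1.55 ± 0.31, limma adjusted p = 0.00328). Slc2a3 passed the filter only through the double line, as its other arrays read at most 159.7. Its place among the tested genes thus rested on the line where it was high. Against H-RasV12, the triose phosphate isomerase gene Tpi1 was higher by +1.09 ± 0.19 (limma adjusted p = 0.00102) and the phosphoglycerate mutase gene Pgam1 by +1.18 ± 0.19 (limma adjusted p = 0.000558).

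Gapdh, the step between aldolase and phosphoglycerate kinase, is present on the array as a control and was left out of the tests. Its control probe set for the 5′ end read 15911, 18985 and 22296 with GFP, 17762, 18967 and 23511 with H-RasV12, 19850, 24403 and 26476 with KSR1, and 22947, 30225 and 28471 in the double line. The double line overlapped with the KSR1 line. The log2 ratio of its 3′ to its 5′ signal, a measure of RNA integrity, ran from -0.31 to -0.19 with GFP, from -0.34 to -0.18 with H-RasV12, from -0.43 to -0.24 with KSR1 and from -0.32 to -0.24 in the double line. The same ratio for the actin control ran from 0.41 to 0.82, from 0.13 to 0.70, from 0.10 to 0.33 and from 0.42 to 0.79 in that order. The KSR1 line thus lay below the GFP line and below the double line without overlap, and the part of this difference in the comparisons with the KSR1 line, those of Slc2a1 and Hk2 among them, was not tested. The 3′ actin control was low on replicate 1 of the GFP line (7981) and of the double line (8629), while the remaining 10 arrays gave 16680 to 26873. Without replicate 1 of every line, Slc2a1, Hk2, Pfkp and Eno2 stayed called in the double line against GFP, against H-RasV12 and against KSR1.

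Genes around pyruvate and the side branches showed which parts of sugar metabolism moved in the double line. Of the lactate export and pyruvate entry genes 5 were tested, and the same 2 were higher against H-RasV12 and against KSR1, the pyruvate dehydrogenase kinase genes Pdk4 and Pdk1, whose products keep pyruvate out of the mitochondrial cycle. In both comparisons 0 of the 5 were lower. Of all tested probe sets 7.10% were called higher and 7.71% lower against H-RasV12, and 8.16% higher and 6.92% lower against KSR1. Pdk4 rose from 222 ± 58.1 with H-RasV12 to 1911 ± 178 in the double line (+3.00 ± 0.36, limma adjusted p = 4.84e-05) and Pdk1 from 353 ± 54.4 to 980 ± 352 (+1.37 ± 0.28, limma adjusted p = 0.0039). Of 16 tested genes of the pentose phosphate path and other branches, 6 were higher and 0 lower than with H-RasV12, beside the same 7.10% and 7.71% of all tested probe sets. Among them were the glycogen branching enzyme gene Gbe1, from 44.2 ± 10.6 to 714 ± 363 (+3.36 ± 0.38, limma adjusted p = 3.2e-05), the phosphoglucomutase gene Pgm1, from 1499 ± 66.0 to 6636 ± 1263 (+2.11 ± 0.21, limma adjusted p = 9.45e-06), and the glycogen synthase gene Gys1 (+1.42 ± 0.22, limma adjusted p = 0.000449). Gbe1 passed the filter only through the double line, as its other arrays read at most 106.4. Its place among the tested genes thus rested on the line where it was high. The list also held Taldo1 at a smaller change, the transaldolase of the pentose phosphate path (+0.87 ± 0.19, limma adjusted p = 0.00593, 0.0753 without replicate 1 of every line).

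With KSR1 alone, 1 of the 16 branch genes was higher than with GFP (Taldo1) and 2 were lower, beside 4.97% of all tested probe sets called higher and 6.81% lower, so these counts lie near the background. The genes called lower were the UDP-glucose pyrophosphorylase gene Ugp2 (-0.99 ± 0.22, limma adjusted p = 0.00848) and the serine synthesis gene Psph (-0.94 ± 0.20, limma adjusted p = 0.00731). The Taldo1 call (+0.77 ± 0.19, limma adjusted p = 0.0165) ended in several alternatives (adjusted p up to 0.112). Of 6 gluconeogenesis genes 2 were tested, and Pck2, the mitochondrial phosphoenolpyruvate carboxykinase, fell from 1552 ± 511 with GFP to 418 ± 79.4 with KSR1 (-1.80 ± 0.25, limma adjusted p = 0.000192). It was 435 ± 46.8 in the double line, below H-RasV12 by 1.89 ± 0.25 on the log2 scale (-1.89, limma adjusted p = 0.000105).

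Among 11 tested regulators of glycolytic genes, 2 were higher in the double line than with H-RasV12 and 0 lower, beside 7.10% and 7.71% of all tested probe sets. Egln1, a prolyl hydroxylase that marks hypoxia-inducible factor for destruction and is itself one of its targets, rose from 637 ± 106 to 2218 ± 300 (+1.77 ± 0.26, limma adjusted p = 0.000295). Hif1a rose from 6314 ± 271 to 11247 ± 730 (+0.83 ± 0.18, limma adjusted p = 0.00601), through a probe set of the gene-family type. With GFP Hif1a was 8592 ± 1546, and the double line was not called against GFP (+0.40, limma adjusted p = 0.173). Against KSR1, 3 of the 11 regulators were higher and 1 lower, beside 8.16% of all tested probe sets called higher and 6.92% lower. Hif1a, 1 of the 3, lost that call in 8 of 21 alternatives (limma adjusted p = 0.0275, up to 0.143 without KSR1 replicate 2), also without any 1 of the 3 double-line arrays. Txnip, an inhibitor of glucose uptake, was 203 ± 46.7 with KSR1 and 875 ± 91.4 in the double line (+2.00 ± 0.22, limma adjusted p = 3.29e-05). With GFP and H-RasV12 it was 449 ± 118 and 658 ± 76.1. The KSR1 line was called lower than GFP (-1.05 ± 0.22, limma adjusted p = 0.00563). The double line was called higher than GFP (+0.96, limma adjusted p = 0.00771) but not against H-RasV12 (+0.40 ± 0.22, limma adjusted p = 0.277). Myc, which drives many glycolytic genes, was lower in the double line than with KSR1, at 310 ± 194 against 715 ± 75.2 (-1.29 ± 0.29, limma adjusted p = 0.00714). Its double-line arrays read 533.7, 204.4 and 192.1, and its mean with GFP was 534. The double line was not called for Myc against GFP (-0.89, limma adjusted p = 0.0519) or H-RasV12 (-0.57 ± 0.29, limma adjusted p = 0.23).

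**Figure D5:**
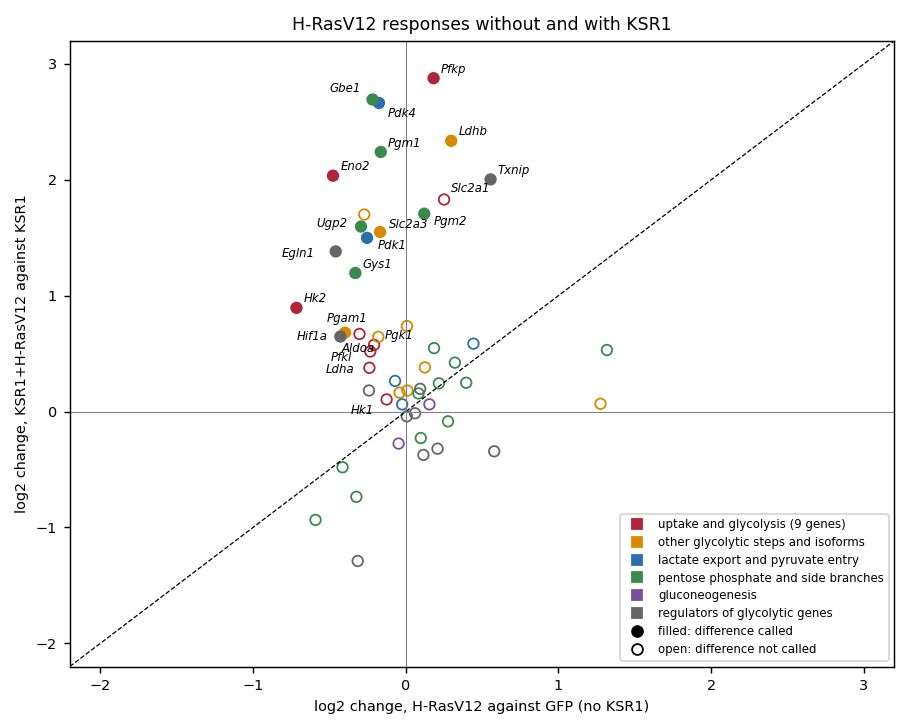
Change in log2(signal + 23) for H-RasV12 against GFP (x axis) and for the double line against KSR1 (y axis), 1 point per tested gene, coloured by list; filled points had an interaction with an adjusted p under 0.05, and the dashed line marks equal responses. Pfkp, Eno2 and Hk2 lie above the dashed line and are filled, and Hk1 lies near the origin.

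Genes whose pattern was most like that of a member were named by Pearson correlation of log2(signal + 23) over the 12 arrays among 6249 tested probe sets with 1 gene symbol. These arrays share the 4 lines, so r describes the shape over lines. Nearest to Slc2a1 were Ifi207 (r = 0.964), the mitochondrial adenylate kinase gene Ak4 (r = 0.961) and the glycolytic gene Tpi1 (r = 0.958). Ifi207 had group means of 81.6 to 136 outside the double line, below the filter level of 181.4, and 409 in it. Nearest to Hk2 were Noct (r = 0.959), Krt19 (r = 0.948) and again Ak4 (r = 0.946). Ak4 had group means of 271 with GFP, 205 with H-RasV12, 467 with KSR1 and 1160 in the double line, an order shared with Hk2.

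Pfkp was nearest to Cd68 (r = 0.987), the endoplasmic reticulum oxidase gene Ero1a (r = 0.985) and Pgm1 (r = 0.98), which were at similar levels in the first 3 lines and high in the double line. Eno2 was nearest to the fatty acid transporter gene Slc27a1 and the sialyltransferase gene St6gal1 (r = 0.978 each) and to the protease gene Ctsk (r = 0.962). Ldha was nearest to the second Aldoa probe set and to the pyruvate kinase gene Pkm (r = 0.917 each), and to Gfm1 (r = 0.906). Cd68 is also a macrophage marker. It rose to 4012 in the double line from group means of 150 to 177, and with it the summed signal of 7 leukocyte and macrophage markers, which ran from 1225 to 3841 in the other lines and from 4790 to 6733 in the double line. Of the 7, Cd14 and Cd68 passed the filter. The markers Ptprc, Adgre1, Itgam and Lyz2 were at group means of at most 25.4 in every line. Csf1r, the macrophage growth factor receptor, did not pass the filter but read 541 on 1 GFP array and 567.4 on 1 KSR1 array, with group means of 237, 152, 252 and 115 for GFP, H-RasV12, KSR1 and the double line. The summed signal of 9 fibroblast markers, of which 7 passed the filter, ran from 45100 to 60920 with GFP, 45180 to 62780 with H-RasV12, 29980 to 34290 with KSR1 and 18460 to 29000 in the double line. Of the 7, 4 were called lower in the double line than with GFP, beside 7.93% of all tested probe sets. Col1a1 fell from 18526 with GFP to 2133 in the double line, while Fn1 (2131 and 1885), Pdgfra (1433 and 1517) and S100a4 (11434 and 9506) changed less. The fibroblast sum was thus lowest where Slc2a1, Hk2, Pfkp and Eno2 were highest, and the part of these marker differences in the results was not tested. In total RNA from a cell line, a change in the cells present and a change in RNA per cell cannot be told apart.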

How the data were processed

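RNA of the 4 lines was labelled by the 1-cycle method for Affymetrix mouse arrays, per the labels' protocols, with 3 arrays per line. MAS5 produced the deposited values, as the submitters' processing notes state; no source used here gives its version or a build. The authors' values are intensity signals (linear scale) whose 2% trimmed mean is 500.3 on every array, so no further scaling was applied.

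The 66 control probe sets were left out of the tests. Symbols came from the platform annotation (10833 probe sets with 1 symbol, 396 with several, 1193 unnamed here), and 10817 were matched through their gene identifier in the RefSeq table of GRCm38.p6. Before log2, 23 was added (close to the 20th percentile of the signals), which understates the change of dim genes. A probe set was tested if its signal exceeded 181.4, the median over the whole table, on 3 or more arrays: 6897 passed and 5525 did not. A single two-sided limma model (version 3.58.1, R 4.3.3) with 4 group means, an intensity trend and 8 residual degrees of freedom served the 6 comparisons, and was tested on simulated data. Isoform differences were compared by exact permutation over the 4 lines, since 3 against 3 arrays cannot go below p = 0.1. Precision is limited by the number of arrays.

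Members, lists, rules and alternatives were chosen with earlier results of these data known. The rule names every member probe set and, from the wider lists, up to 4 called genes per list and comparison with the largest changes, and the 3 genes most correlated with a member. Taldo1 against H-RasV12, and Tpi1 and Pgam1 against KSR1, fall outside this rule and were named after their values were seen. The flagged interaction results instead name every called gene of the wider lists. The alternatives were 2 other pseudocounts, no filter, quantile normalization, median centring, the replicate number as a block, a fit of the groups compared alone, no intensity trend, the second probe set, leaving out each array, and leaving out replicate 1 of every line. Promoter windows are RefSeq's, build GRCm38.p6, and all 10 genes matched.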

Additional observations from a re-analysis of the deposited data

Results flagged for a closer look

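The response to H-RasV12 differed with KSR1 from that without it, by the interaction test in limma, for 3 of the 9 measured genes: Pfkp (2.69 on the log2 scale), Eno2 (2.51) and Hk2 (1.61), each in every alternative that was run. Over all tested probe sets this test called 4.16% higher and 3.54% lower. Of the gluconeogenesis genes it flagged 0 of 2. In the other wider lists it flagged 3 of 10, 2 of 5, 5 of 16 and 3 of 11 tested genes, in the order below. Of the other glycolytic genes these were Ldhb (2.04), Slc2a3 (1.72) and Pgam1 (1.08). Around pyruvate they were Pdk4 (2.84) and Pdk1 (1.75). In the side branches they were Gbe1 (2.91), Pgm1 (2.40), Ugp2 (1.89), Pgm2 (1.59) and Gys1 (1.53), and among the regulators Egln1 (1.84), Txnip (1.45) and Hif1a (1.08). The calls for Slc2a3, Pgam1 and Hif1a ended in some alternatives, with adjusted p up to 0.0777, 0.0602 and 0.0633, as did that for Gys1 without replicate 1 of every line (0.0554). Slc2a3 and Gbe1 passed the filter only through the double line.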

How the results depend on the processing

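Of 54 results (9 genes in 6 comparisons), 22 were called, and 19 of these stayed called in each alternative that was run. The 3 that did not were Slc2a1 for KSR1 against GFP, Aldoa for the double line against GFP, and Hk2 for the double line against KSR1. Of 32 that were not called, 8 passed in some alternative, and 0 called results changed sign. In the wider lists 65 results were called and 15 of them were lost in some alternative. The count for KSR1 against GFP was 1 without a filter, 1 in a fit of the groups compared alone and 1 with the second probe set (where the dim Hk2 set was not tested), and 1 to 2 with arrays left out. Leaving out arrays gave 3 to 5 for the double line against KSR1, 5 to 7 against GFP, 7 against H-RasV12, 3 to 4 for the interaction and 0 for H-RasV12 alone. The interaction count was 5 after median centring. Arrays with the same replicate number had deviations correlated at a median r of 0.198 (-0.021 to 0.511, 18 pairs), against -0.127 (-0.441 to 0.241, 36 pairs) for different numbers. Deviations were taken from the mean of each line, so a value above 0 for same numbers pulls the other below 0. Same-numbered arrays thus tended to deviate together, but not in every pair, and the labels give the numbers no meaning, so the unblocked model was kept. With the replicate block the counts were 7 for the double line against KSR1 and 6 for the interaction, and 0, 2, 7 and 7 for H-RasV12 against GFP, KSR1 against GFP, and the double line against H-RasV12 and GFP. Alternatives other than leaving out arrays called 763 to 1290 of all probe sets for the double line against KSR1 (1040 in the main fit). They called 439 to 741 for the interaction (531) and 778 to 1317 for the double line against GFP (1079). The numbers with the block alone are not given for these comparisons. The exact p values with the block were 0.00174, 0.026 and 0.0226 for the hexokinase, phosphofructokinase and enolase differences. The exact p for Hk2 minus Hk1 was 0.823 with the second, dim Hk2 probe set. With arrays left out it ran from 0.000519 to 0.0286, that for Pfkp minus Pfkl from 0.00955 to 0.133, and that for Eno2 minus Eno3 from 0.0108 to 0.0744. Eno2 minus Eno1 was not run. All probe sets called for H-RasV12 against GFP numbered 5, and 8 without a filter, 10 with the block, 2 in a fit of the groups compared alone and 1 to 53 with arrays left out. For KSR1 against GFP the number was 813, and 482 and 512 without GFP replicate 3 or KSR1 replicate 2. For the interaction it was 531, and 339 and 340 without H-RasV12 replicate 2 or KSR1 replicate 2. The causes were not tested.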
